A study of Mus musculus with 21 samples.

Results

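The Cxcl12 chemokine axis was followed here as 4 genes of the 24594 in each count table. They are the ligand Cxcl12, its signalling receptor Cxcr4, its scavenging receptor Ackr3 and the related chemokine Cxcl14. The genes were selected by symbol with their CPM (a gene's share of the counts of a library, with edgeR's TMM scaling between libraries) in all 7 groups of libraries in view. Their levels, changes and overlaps between groups are therefore given as a description with no p-value. The share of all genes that lie apart between groups in the same way is not given, so nothing is read from the overlaps. Tests are given for other genes of the pathway, from lists chosen with earlier results of these data known.

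Cxcl12 is a secreted chemokine that guides migrating cells, among them neural crest cells, germ cells and blood progenitors. It binds Cxcr4, a receptor coupled to inhibitory G proteins, and Ackr3, an atypical receptor that recruits arrestin and removes Cxcl12 from the surroundings. Cxcl14 is a chemokine of epithelia and mesenchyme whose receptor is less settled.

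The RNA-seq libraries of mouse embryos form a stage series and a genotype series, with 3 libraries in each group. The stage series holds sorted cranial neural crest cells that carry Wnt1::Cre;ROSA RFP, in which Cre active in the dorsal neural tube marks the crest lineage with a red fluorescent protein. Pharyngeal arch 2 (PA2) was the source at E10.5 (E for embryonic day), and at E12.5 and E14.5 it was the pinna, an outer ear part derived from that arch. In the genotype series, PA2 and the third arch (PA3) of E10.5 embryos were taken from wild type (WT) and from HIRE1del/del. In HIRE1del/del a distal regulatory region of Hoxa2 and Hoxa3 on chromosome 6 is deleted on both copies. The deletion was made by CRISPR in zygotes, and all mice were kept on a mixed C57Bl/6J;CD1 background with embryos of both sexes pooled. Tissue was digested with trypsin at E10.5 and E12.5 and with papain at E14.5, so enzyme and the last stage cannot be told apart. The dissected tissue changes from PA2 at E10.5 to the pinna later, so stage and tissue cannot be told apart between E10.5 and either later stage. Libraries were read single-end in the stage series and paired-end in the genotype series, so the series are set side by side without a test.

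Libraries held 25814151 to 49058941 counts by stage, with the most at E14.5, and 25804446 to 32210131 in the genotype series. Hoxa2, a gene that HIRE1 acts on, was 73.4 to 84.2 CPM in WT and 4.75 to 7.10 in HIRE1del/del PA2. In PA3 it was 56.0 to 65.1 CPM in WT and 22.1 to 25.6 in HIRE1del/del, so the genotype labels held in all 12 libraries. The paper also reports lower Hoxa3 in PA3 of HIRE1del/del, with a larger relative decrease than that of Hoxa2. Levels of Hoxa3 are not given here. All 10 markers of cranial crest mesenchyme were at or above 1 CPM at E10.5 in both series, and their sum was 1827 to 2103 CPM at E10.5, 3461 to 3716 at E12.5 and 3682 to 4038 at E14.5 in the sorted cells. Single markers of that list went both ways, with 4 higher and 5 lower at E12.5 than at E10.5, 3 higher and 6 lower at E14.5 than at E10.5, and 8 of 10 at or above 1 CPM at E12.5. The labels call the arch libraries neural crest cells, but no sorting was stated for them, and they held transcripts of other cells. The summed CPM of 10 endothelial markers was 345 to 363 in PA2 WT against 18.1 to 22.0 in sorted E10.5 PA2. The 10 erythroid markers summed to 1592 to 2491 CPM in PA2 WT and 12899 to 25154 in PA3 WT, against 3.61 to 9.54 in the sorted E10.5 cells.

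Cxcl12 (ENSMUSG00000061353) lies on the plus strand at chr6:117168535-117181367 of GRCm38, and 65.0 Mb separate it from Hoxa2 on the same chromosome. Cxcr4 (ENSMUSG00000045382) lies on the minus strand at chr1:128588199-128592293 and Ackr3 (ENSMUSG00000044337) on the plus strand at chr1:90203980-90216751. Cxcl14 (ENSMUSG00000021508) lies on the minus strand at chr13:56288643-56296551. None of the 4 overlapped another gene of the GENCODE M21 annotation, so their counts were shared with 0 annotated neighbours. Counts covered 8176 exonic bases for Cxcl12, 1808 for Cxcr4, 3348 for Ackr3 and 1827 for Cxcl14, and levels are compared between genes only as CPM per kb of exon.

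The 250 bases before each start are shown because the 4 genes moved apart from each other across stages. All 4 were found in the RefSeq promoter table (GRCm38.p6), each with 1 window, and are printed 5′ to 3′ on the strand of the gene. Capitals mark matches on either strand. The TATA box was searched as TATAAA. For the GC box the letters were GGGCGG, and the CCAAT box was searched by its name's own letters, so that a GC box of the other strand appears as its reverse complement. The windows are chr6:117168285-117168534 for Cxcl12, chr13:56296552-56296801 for Cxcl14, chr1:128592300-128592549 for Cxcr4 and chr1:90203730-90203979 for Ackr3.
Cxcl12: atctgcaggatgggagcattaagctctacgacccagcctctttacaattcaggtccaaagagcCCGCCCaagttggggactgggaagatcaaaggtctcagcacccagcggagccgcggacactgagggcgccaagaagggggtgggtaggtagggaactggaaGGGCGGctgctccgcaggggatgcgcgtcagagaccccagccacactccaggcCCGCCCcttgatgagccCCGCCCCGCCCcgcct
Cxcl14: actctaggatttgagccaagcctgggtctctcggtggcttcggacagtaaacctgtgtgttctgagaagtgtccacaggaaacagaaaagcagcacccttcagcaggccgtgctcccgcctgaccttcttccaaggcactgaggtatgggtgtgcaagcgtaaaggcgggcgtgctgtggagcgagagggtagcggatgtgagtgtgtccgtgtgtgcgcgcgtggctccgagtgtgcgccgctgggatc
Cxcr4: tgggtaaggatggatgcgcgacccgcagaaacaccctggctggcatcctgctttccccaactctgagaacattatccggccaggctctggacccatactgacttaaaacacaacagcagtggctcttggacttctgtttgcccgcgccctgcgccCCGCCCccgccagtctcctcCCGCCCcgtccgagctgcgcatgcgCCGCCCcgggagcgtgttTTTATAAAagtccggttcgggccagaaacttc
Ackr3: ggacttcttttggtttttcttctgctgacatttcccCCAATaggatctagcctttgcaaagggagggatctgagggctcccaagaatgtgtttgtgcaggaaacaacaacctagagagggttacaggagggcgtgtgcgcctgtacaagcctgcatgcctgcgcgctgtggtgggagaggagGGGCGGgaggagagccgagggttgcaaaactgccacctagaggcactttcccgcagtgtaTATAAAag
The Cxcl12 window held 5 GC boxes, 2 of which overlap, and no TATA box. The Cxcr4 window held 3 GC boxes and a TATA box found on both strands at overlapping letters that begin 32 and 30 bases before the start. In Ackr3 there was 1 GC box, 1 CCAAT and 1 TATA box that begins 8 bases before the start. The Cxcl14 window held none of the 3. Of the 32817 windows of that length in the table, 32.7% held GGGCGG, 33.8% CCAAT and 12.4% TATAAA. None of the 4 windows held ACGTG, the core bound by hypoxia factors, TGATNNAT, bound by HOX and PBX proteins together, or the palindromic EBF motif. These were present in 16.6%, 7.69% and 0.78% of all windows. GC content was 64.4% for Cxcl12, 61.2% for Cxcr4, 59.6% for Cxcl14 and 54.0% for Ackr3, against a median of 52.4%.

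From PA2 at E10.5 to the pinna at E14.5 Cxcl12 fell in each interval in the sorted crest cells, to 9.70% of its E10.5 level. Cxcl14 and Ackr3 were several-fold higher from E12.5 on, and Cxcr4 was lowest at E12.5 and highest at E14.5. In bulk libraries, fewer cells that express a gene and less of its RNA in each cell cannot be told apart.

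Among the ligands, Cxcl12 was 427, 436 and 450 CPM at E10.5 (437 ± 11.7, SD, n = 3). It was 190, 170 and 164 CPM in the E12.5 pinna (175 ± 13.8) and 38.7, 42.8 and 45.7 CPM in the E14.5 pinna (42.4 ± 3.55). Every library of a later stage was below every library of the stage before. On the log2 scale Cxcl12 fell by 1.32 (SE 0.0755) from E10.5 to E12.5 and by 2.04 (SE 0.0782) from E12.5 to E14.5.

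Cxcl14 was 16.3, 25.8 and 31.9 CPM at E10.5 (24.7 ± 7.87, n = 3). At E12.5 it was 232, 315 and 277 CPM (275 ± 42.0) and at E14.5 it was 217, 200 and 222 CPM (213 ± 11.7). The E10.5 libraries were all far below the others, and the E14.5 libraries were all slightly below those of E12.5. Cxcl14 was 11.1-fold higher at E12.5 than at E10.5 (log2 difference 3.48, SE 0.203), and the log2 difference from E12.5 to E14.5 was -0.37 (SE 0.179). Per kb of exon, Cxcl12 exceeded Cxcl14 at E10.5 with 53.5 ± 1.44 against 13.5 ± 4.31 CPM per kb. At E14.5 the order was turned, with 5.19 ± 0.434 CPM per kb for Cxcl12 and 116 ± 6.38 for Cxcl14.

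Of the receptors, Cxcr4 was low in the sorted cells. It was 4.75, 3.36 and 2.75 CPM at E10.5 (3.62 ± 1.03, n = 3), from 142, 98 and 84 counts. It was 1.78, 1.89 and 1.73 CPM at E12.5 (1.80 ± 0.0822), from 48 to 58 counts, and 9.25, 8.32 and 6.92 CPM at E14.5 (8.16 ± 1.17). The 3 stages did not overlap. The log2 difference was -1.003 (SE 0.220) from E10.5 to E12.5 and 2.18 (SE 0.214) from E12.5 to E14.5.

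Ackr3 was 6.99, 9.37 and 12.7 CPM at E10.5 (9.68 ± 2.86, n = 3). It was 48.3, 41.6 and 45.0 CPM at E12.5 (45.0 ± 3.34) and 71.0, 70.5 and 65.5 CPM at E14.5 (69.0 ± 3.02). Each stage lay above the one before with no overlap. The log2 difference was 2.21 (SE 0.160) in the first interval and 0.62 (SE 0.143) in the second, and 2.83 (SE 0.160) over both.

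**Figure D1:**
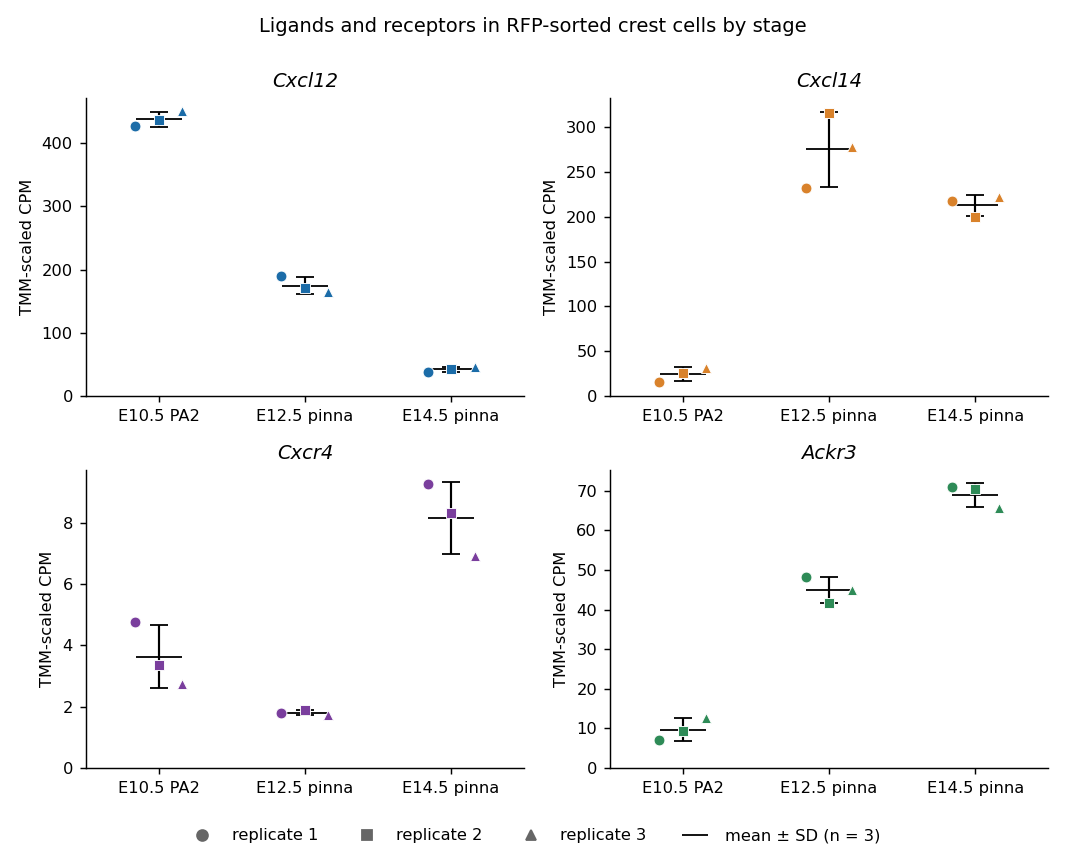
TMM-scaled CPM (vertical axes from 0, one panel a gene) of Cxcl12, Cxcl14, Cxcr4 and Ackr3 in the 9 libraries of sorted crest cells, by stage; points are libraries, horizontal marks with bars the mean ± SD of 3. Cxcl12 goes down from 437 to 42.4 CPM while Ackr3 goes up from 9.68 to 69.0, and Cxcr4 has its lowest level, 1.80 CPM, at E12.5.

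The opposite courses of ligand and scavenging receptor changed their ratio. Per kb of exon, Cxcl12 was 19.5 ± 5.24 times Ackr3 at E10.5 (n = 3), 1.59 ± 0.094 times at E12.5 and 0.253 ± 0.0315 times at E14.5. Per kb, Cxcl12 was above Ackr3 in all 6 libraries of the first 2 stages and below it in all 3 of the last. Among the receptors, Ackr3 was 1.598 ± 0.854 times Cxcr4 per kb at E10.5, where the libraries ranged from 0.795 to 2.49. It was 13.5 ± 1.45 times Cxcr4 at E12.5 and 4.61 ± 0.487 times at E14.5.

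**Figure D2:**
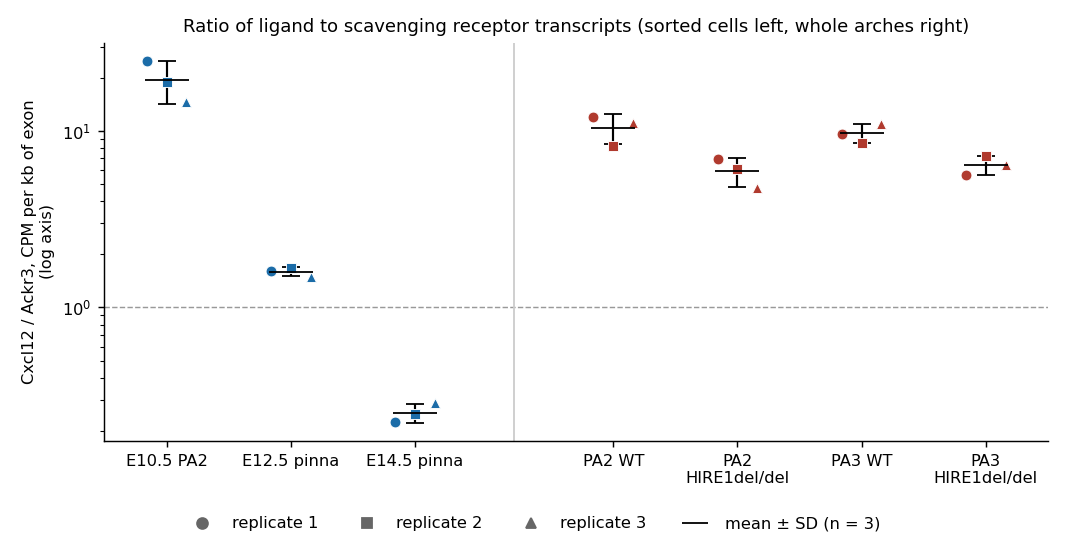
Ratio of Cxcl12 to Ackr3 in CPM per kb of exon (vertical, log axis; dashed line at 1) in each library of the 7 groups, sorted cells on the left and whole arches on the right; marks with bars are the mean ± SD of 3. The ratio drops from 19.5 to 0.253 across stages, and in each arch the HIRE1del/del libraries lie below all WT libraries.

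edgeR called all 4 genes between E10.5 and E12.5, where 68.8% of all 13438 genes tested were called. It called 3 of 4 between E12.5 and E14.5 (65.7% of all genes), the exception being Cxcl14, and all 4 between E10.5 and E14.5 (82% of all genes). The genes were selected on these levels and the 3 contrasts share libraries, so nothing is read from these counts. With total counts in place of TMM, the share of higher genes among the calls from E12.5 to E14.5 moved from 49.7% to 38.5% and the median of all genes by -0.12 on the log2 scale. Under it the log2 difference of Ackr3 in that interval was 0.50 and that of Cxcl12 was -2.17. Cxcl14 was called in that interval with total counts, with the libraries of the contrast alone and without E12.5 replicate 1.

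Markers of other cells also moved between stages. From E10.5 to E12.5, 8 of 10 melanocyte markers tested rose while their sum went from 75.5 to 89.6 CPM to 67.4 to 91.1 CPM. In the later interval, in which Cxcr4 was higher, more of them rose. All 10 melanocyte markers rose from E12.5 to E14.5, to a sum of 466 to 550 CPM. Pmel, which builds the melanosome matrix, went from 15.3 to 136 CPM. Of 8 Schwann and satellite glia markers tested 7 rose, with sums of 44.1 to 49.7 and 132 to 143 CPM. Only 2 of 10 white blood cell markers passed the filter, and both rose. The 10 of that list summed to 3.75 to 4.96 CPM and then 7.95 to 13.6 CPM. At or above 1 CPM were 1, 1 and 3 of them at the 3 stages, and 5, 8 and 10 of the melanocyte markers. A marker that passed the filter only through a later stage could only rise, so these counts are partly set by the filter. Ptprc, carried by all white blood cells, was 1.47 CPM at E14.5. Of 8 endothelial markers tested 3 rose and 1 fell. That list summed to 26.7 to 39.7 and 121 to 185 CPM, of which Kdr alone gave 141 CPM at E14.5, while Pecam1 was 2.43 and Cdh5 2.18 CPM. Of 8 epithelial markers tested 5 rose and 1 fell by E12.5, and 5 rose and 3 fell afterwards. Their list summed to 11.4 to 13.8 CPM at E10.5, 13.1 to 16.2 at E12.5 and 30.3 to 51.4 at E14.5. Cldn5 was listed at 0 in every library of both series and Foxd3 in all 9 sorted ones. Of 6 neuronal markers tested 1 rose and 5 fell by E12.5, and 1 rose and 2 fell afterwards. Their list had mean sums of 150, 127 and 105 CPM at the 3 stages. For 3 branchiomeric muscle markers 2 rose and 1 fell, then 1 rose and 2 fell. For 4 erythroid markers 1 rose and 1 fell, then 2 rose and 2 fell. As 68.8% and 65.7% of all genes were called in these intervals, nothing is read from the counts of markers. The part of these cells in the levels of Cxcr4 and the other 3 genes was not tested.

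**Figure D3:**
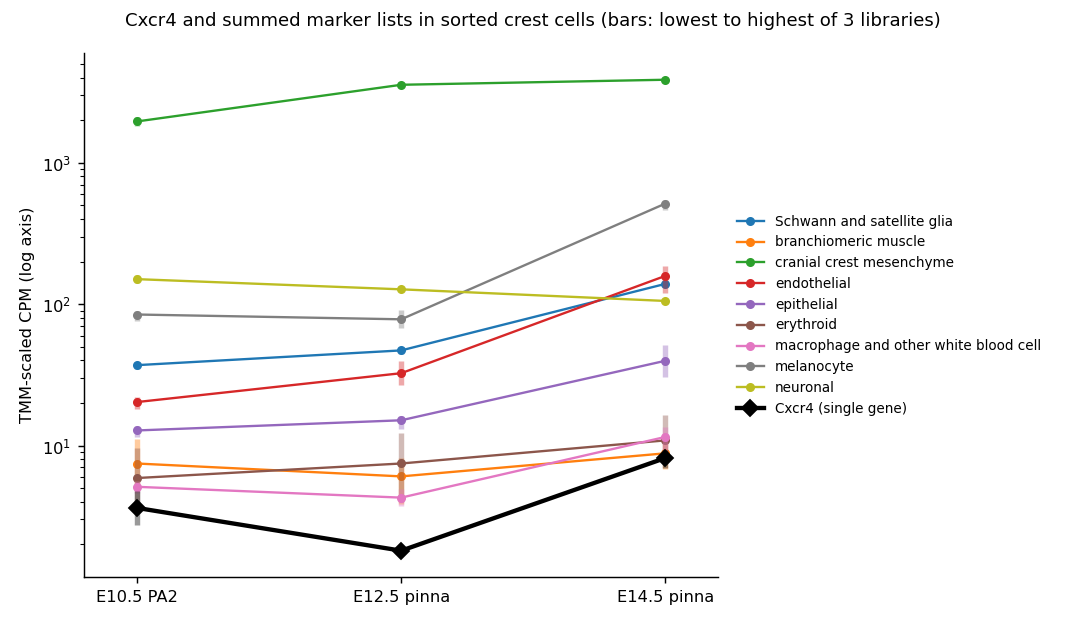
Mean TMM-scaled CPM of Cxcr4 (black diamonds) and summed CPM of 9 lists of 10 cell type markers (coloured lines) in sorted crest cells by stage, on a log axis; vertical bars run from the lowest to the highest of 3 libraries. Cxcr4 goes from 1.80 to 8.16 CPM between E12.5 and E14.5, the interval in which the melanocyte sum reaches 466 to 550 CPM.

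Other genes of the pathway were taken from 5 lists of 125 genes. In the stage series 68 passed the filter of 1 CPM in 2 libraries. From E10.5 to E12.5 edgeR called 29 higher and 20 lower (median log2 difference 0.07, against 0.0097 for all genes). From E12.5 to E14.5 it called 33 higher and 16 lower (median 0.24 against -0.0076), and over both intervals 36 and 20 (median 0.31 against 0.024). The shares of 72.1%, 72.1% and 82.4% lie near those of all genes.

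Most of the other chemokine receptors did not pass the filter in the sorted cells. Of 21 only Ackr1 and Ccrl2 passed, an atypical receptor that binds chemokine without signalling and one that presents chemerin. Both rose in each interval. At E10.5 they were at 0.156 and 0.0664 CPM and could pass only through the later stages. A rise from E10.5 was thus set by the filter, and nothing is read from its direction. Ackr1 had 3 to 7 counts a library at E10.5 and a mean of 8.94 ± 2.48 CPM at E12.5. At E14.5 it was 30.7 ± 17.1 CPM, with libraries from 16.5 to 49.8. Ccrl2 had 0 to 4 counts at E10.5, then 1.44 ± 0.118 CPM at E12.5 and 10.6 ± 0.794 CPM at E14.5. Of 36 other chemokine ligands 4 passed, and 2 were called from E10.5 to E12.5. Ccl27a, a chemokine of skin, was higher (log2 difference 2.05, SE 0.278, edgeR adjusted p = 5.28e-05) and Ccl25 lower (-0.78, SE 0.211, adjusted p = 0.00632). Both were named after their values were seen.

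Of 14 surface partners of the axis tested, 8 rose and 3 fell by E12.5 (78.6% called, against 68.8% of all genes), and 8 rose and 2 fell from E12.5 to E14.5 (71.4% against 65.7%). Cd44, the hyaluronan receptor that also serves in the Mif receptor complex, went from 0.905 ± 0.237 CPM at E10.5 to 19.8 ± 2.24 at E12.5 and 47.7 ± 4.45 at E14.5. Ramp3, a protein that pairs with the adrenomedullin receptor, rose from 9.79 ± 0.951 to 51.0 ± 10.6 CPM between E12.5 and E14.5 (log2 difference 2.38, SE 0.139, edgeR adjusted p = 9.87e-08). Mif, another ligand of Cxcr4 and Ackr3, fell from 139 ± 14.4 CPM at E10.5 to 29.9 ± 4.37 at E14.5 (log2 difference -2.22, SE 0.109, adjusted p = 5.3e-09). Mmp9, a protease that can cleave Cxcl12, fell from 2.65 ± 1.00 to 0.521 ± 0.177 CPM by E12.5 (log2 difference -2.33, SE 0.355, adjusted p = 0.000131).

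Of 38 genes for G proteins, arrestins, kinases and receptor sorting, 16 rose and 11 fell by E12.5, and 20 rose and 6 fell afterwards. The shares called, 71.1% and 68.4%, lie near the 68.8% and 65.7% of all genes. Elmo1, an adaptor for Rac activation, rose from 5.78 ± 0.301 to 46.9 ± 4.24 CPM from E12.5 to E14.5 (log2 difference 3.02, SE 0.0954, edgeR adjusted p = 1.81e-09). Pik3cg, the PI3 kinase subunit switched on by G protein-coupled receptors, rose from 0.384 ± 0.113 to 5.35 ± 1.07 CPM (3.80, SE 0.299, adjusted p = 9.35e-07). Rgs5, a regulator of G protein signalling known from pericytes, was 16.2 ± 10.6 CPM at E10.5, 1.10 ± 0.228 at E12.5 and 2.58 ± 2.15 at E14.5. Rgs4, of the same family, fell from 3.78 ± 1.73 to 1.09 ± 0.431 CPM between E12.5 and E14.5 (log2 difference -1.80, SE 0.397, adjusted p = 0.00204).

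All 10 transcription factors known to act on Cxcl12, Cxcr4 or Ackr3 were tested, and 8 were called from E10.5 to E14.5, 1 higher and 7 lower (80% called, against 82% of all genes). Foxc1, a forkhead factor known to act on Cxcl12 and Cxcr4, was 131 ± 1.90 CPM at E10.5, 5.32 ± 1.18 at E12.5 and 1.04 ± 0.162 at E14.5. Its log2 difference was -4.63 (SE 0.132, edgeR adjusted p = 5.95e-10) in the first interval and -2.34 (SE 0.173, adjusted p = 5.79e-07) in the second. Ebf3, of the EBF family, went from 257 ± 20.5 to 63.4 ± 6.49 and 0.597 ± 0.238 CPM, a log2 difference of -8.74 over both intervals (SE 0.181, adjusted p = 1.47e-11). Hic1, a repressor of Ackr3, was 10.9 ± 7.07, 85.4 ± 10.8 and 17.4 ± 7.53 CPM and thus rose and fell again. Epas1, a hypoxia-inducible factor, fell from 3.36 ± 0.483 to 0.375 ± 0.213 CPM by E12.5 (log2 difference -3.17, SE 0.397, adjusted p = 2.82e-05).

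In HIRE1del/del embryos Cxcl12 was lower than in WT in both arches, to 68.9% of WT in each. The other 3 genes overlapped between the genotypes in both arches. The share of all genes that do not overlap between the genotypes is not given here. The PA2 libraries of a genotype enter both its genotype contrast and its arch contrast, as do those of PA3, so these contrasts share samples.

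Cxcl12 was 257, 253 and 260 CPM in WT PA2 (257 ± 3.82, n = 3) and 179, 169 and 183 CPM in HIRE1del/del PA2 (177 ± 7.56). In PA3 it was 314, 395 and 390 CPM in WT (366 ± 45.2) and 218, 245 and 294 CPM in HIRE1del/del (252 ± 38.2). In each arch all 3 HIRE1del/del libraries were below all 3 WT libraries. The log2 difference was -0.54 (SE 0.0996) in PA2 and -0.54 (SE 0.0990) in PA3, and the difference between these effects was 0.00087 (SE 0.141). In order of level PA3 WT was above PA2 WT and PA3 HIRE1del/del, which overlapped each other, and PA2 HIRE1del/del was lowest.

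edgeR called Cxcl12 as the 1 of 4 genes in PA2 (0.438% of 14383 genes tested) and as the 1 of 4 in PA3 (0.216%), and 0 of 4 for the difference of effects (0.0487%). The selection used these levels, so the calls are no test and nothing is read from them. The PA2 call was lost when any 1 of its 6 libraries was left out. The PA3 call was lost without WT replicate 2 or 3, without HIRE1del/del replicate 1 or 2, with the PA3 libraries fitted alone, and with DESeq2 size factors. The log2 difference stayed between -0.56 and -0.50 in PA2 and between -0.66 and -0.44 in PA3 over 14 alternatives each. Of 14 genes tested within 1000 kb on either side of Cxcl12, edgeR called 0 in PA2 and 0 in PA3, with 1 and 0 at an unadjusted p under 0.05. As 0.438% and 0.216% of all genes were called, nothing is read from these counts of 0. The median log2 differences of the 14 were -0.0037 and -0.0057, with ranges of -0.53 to 0.15 in PA2 and -0.28 to 0.66 in PA3. The lowest in PA2 was Depp1 (SE 0.170), which was 0.25 (SE 0.168) in PA3.

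Cxcl14 was 11.7, 21.2 and 19.5 CPM in WT PA2 (17.4 ± 5.08, n = 3) and 12.6, 12.8 and 28.3 CPM in HIRE1del/del PA2 (17.9 ± 9.01). In PA3 it was 7.53, 11.3 and 12.1 CPM in WT (10.3 ± 2.43) and 9.73, 8.85 and 19.1 CPM in HIRE1del/del (12.6 ± 5.67). Replicate 3 of HIRE1del/del was highest and replicate 1 of WT lowest in both arches, and all groups next to each other in level overlapped. The log2 differences between genotypes were 0.03 (SE 0.349) in PA2 and 0.28 (SE 0.361) in PA3.

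Cxcr4 was 18.4, 13.7 and 18.5 CPM in WT PA2 (16.9 ± 2.69, n = 3) and 14.51, 12.55 and 13.3 CPM in HIRE1del/del PA2 (13.5 ± 0.985). It was 21.6, 18.1 and 18.8 CPM in WT PA3 (19.5 ± 1.86) and 22.6, 26.2 and 20.4 CPM in HIRE1del/del PA3 (23.1 ± 2.95). The genotypes overlapped in each arch, by 1 library on each side. The log2 difference was -0.32 (SE 0.129) in PA2 and 0.24 (SE 0.125) in PA3, and the difference between the effects was -0.57 (SE 0.180). Whole PA2 WT held 9.33 ± 1.49 CPM per kb of Cxcr4 and the sorted E10.5 PA2 cells 2.00 ± 0.568, which are set side by side with no test.

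Ackr3 was 8.75, 12.7 and 9.67 CPM in WT PA2 (10.4 ± 2.05, n = 3) and 10.52, 11.3 and 15.9 CPM in HIRE1del/del PA2 (12.6 ± 2.88). In WT PA3 it was 13.3, 19.0 and 14.6 CPM (15.6 ± 2.97) and in HIRE1del/del PA3 15.9, 13.9 and 18.6 CPM (16.1 ± 2.37). The genotypes overlapped in both arches, with log2 differences of 0.28 (SE 0.189) and 0.05 (SE 0.184). Per kb of exon, Cxcl12 was 10.4 ± 2.00 times Ackr3 in WT PA2 and 5.94 ± 1.13 times in HIRE1del/del PA2. In PA3 the ratio was 9.72 ± 1.21 in WT and 6.43 ± 0.795 in HIRE1del/del, and the genotypes did not overlap in either arch.

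**Figure D4:**
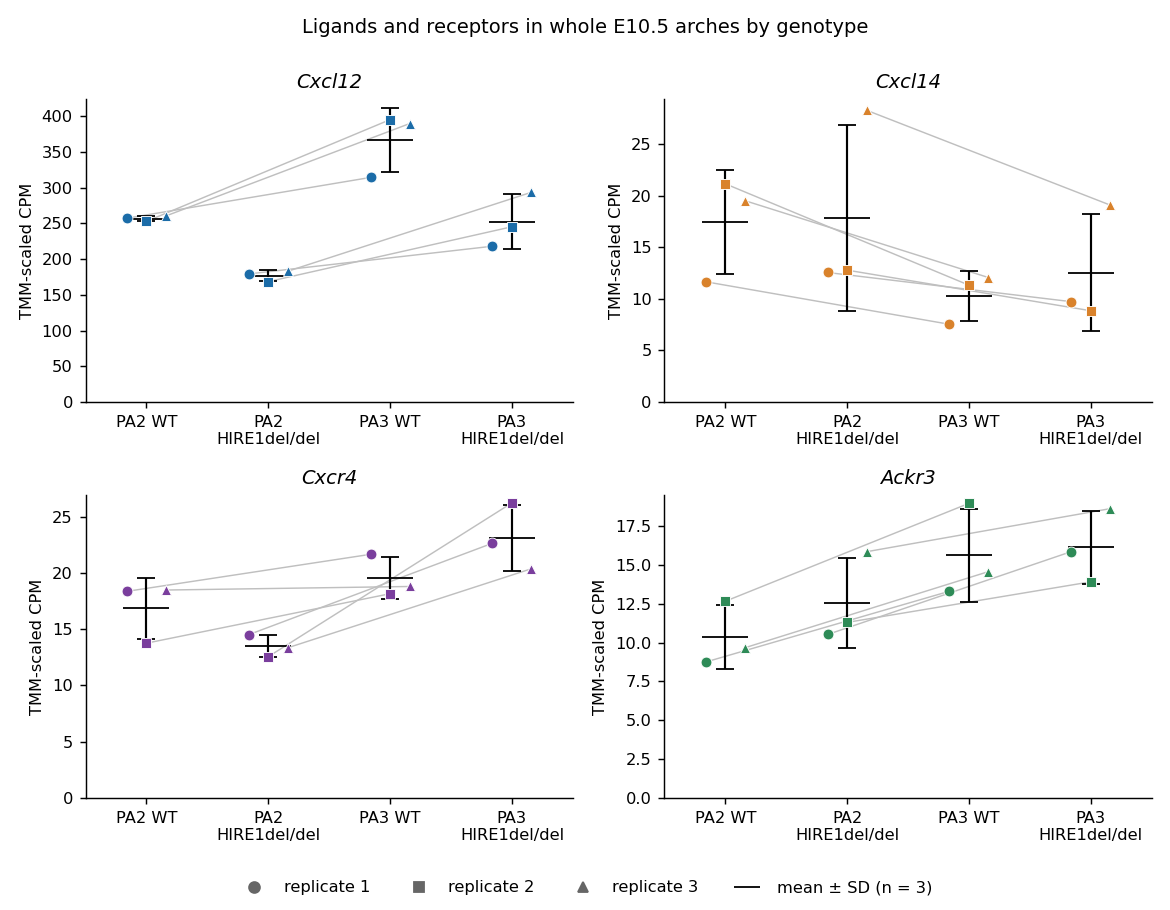
TMM-scaled CPM (vertical axes from 0) of Cxcl12, Cxcl14, Cxcr4 and Ackr3 in the 12 arch libraries by arch and genotype; points are libraries, marks with bars the mean ± SD of 3, and grey lines join PA2 and PA3 libraries of one genotype and number. Cxcl12 is 177 CPM in HIRE1del/del PA2 against 257 in WT, and 252 against 366 in PA3, with no overlap; Cxcl14 goes down and Ackr3 and Cxcr4 go up from PA2 to PA3 along all 6 lines.

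Of the other pathway genes 74 passed the filter in the arches, and 1 was called in PA2 HIRE1del/del (median log2 difference -0.06, against -0.0083 for all genes). That gene was Pik3r1, the regulatory subunit of PI3 kinase, which fell from 78.0 ± 1.39 to 59.4 ± 3.65 CPM (log2 difference -0.39, SE 0.0644, edgeR adjusted p = 0.0143). The call was lost without any 1 of the WT libraries and without HIRE1del/del replicate 1 or 2. In PA3 edgeR called 0 of 74, with 6 at an unadjusted p under 0.05, and DESeq2 called 1. For the difference of effects edgeR and DESeq2 called 0, with 7 at an unadjusted p under 0.05 in edgeR. Of 79 genes in the lists of cell type markers edgeR called 0 between genotypes in PA2 and 0 in PA3, with 7 at an unadjusted p under 0.05 in each. Of all 14383 genes 0.438% were called in PA2, 0.216% in PA3 and 0.0487% for the difference of effects. At an unadjusted p under 0.05 were 1233, 1400 and 794 of them. With shares so low, nothing is read from the counts of pathway genes or markers called. Sums of some marker lists did not overlap between genotypes in PA2, while those of the other lists did. The share of all genes that lie apart in this way is not given, so nothing is read from these overlaps. Schwann and satellite glia markers summed to 65.8 to 70.7 CPM in WT and 51.7 to 60.8 in HIRE1del/del, branchiomeric muscle markers to 47.6 to 50.1 and 39.2 to 46.2, and neuronal markers to 155 to 165 and 137 to 154.7. In PA3 the sums of all lists overlapped. Schwann and satellite glia markers summed there to 124 to 162 CPM in WT and 114 to 128 in HIRE1del/del. Branchiomeric muscle markers summed to 55.9 to 67.0 and 56.4 to 71.6, and neuronal markers to 220 to 294 and 191 to 315. The part of these cells in the lower Cxcl12 was not tested, and neither was that of Hoxa2 or Hoxa3.

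Between the arches Cxcl12 was higher in PA3 than in PA2 in both genotypes, with log2 differences of 0.51 (SE 0.0990) in WT and 0.51 (SE 0.0996) in HIRE1del/del. Its groups did not overlap in either genotype, and PA3 was higher in all 6 pairs of libraries with the same genotype and number, by 0.28 to 0.68. Ackr3 was also higher in PA3 in all 6 pairs. Its log2 difference was 0.59 (SE 0.188) in WT, where the groups did not overlap, and 0.36 (SE 0.186) in HIRE1del/del, where they did.

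Cxcr4 was higher in PA3 in all 6 pairs as well. The log2 difference was 0.21 (SE 0.126) in WT, where the groups overlapped, and 0.78 (SE 0.128) in HIRE1del/del, where they did not. Cxcl14 alone among the 4 was lower in PA3, in all 6 pairs, by -0.87 to -0.35. Its log2 differences were -0.76 (SE 0.357) in WT and -0.51 (SE 0.354) in HIRE1del/del. The share of all genes that keep the same direction in all 6 pairs is not given here, so nothing is read from these directions.

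**Figure D5:**
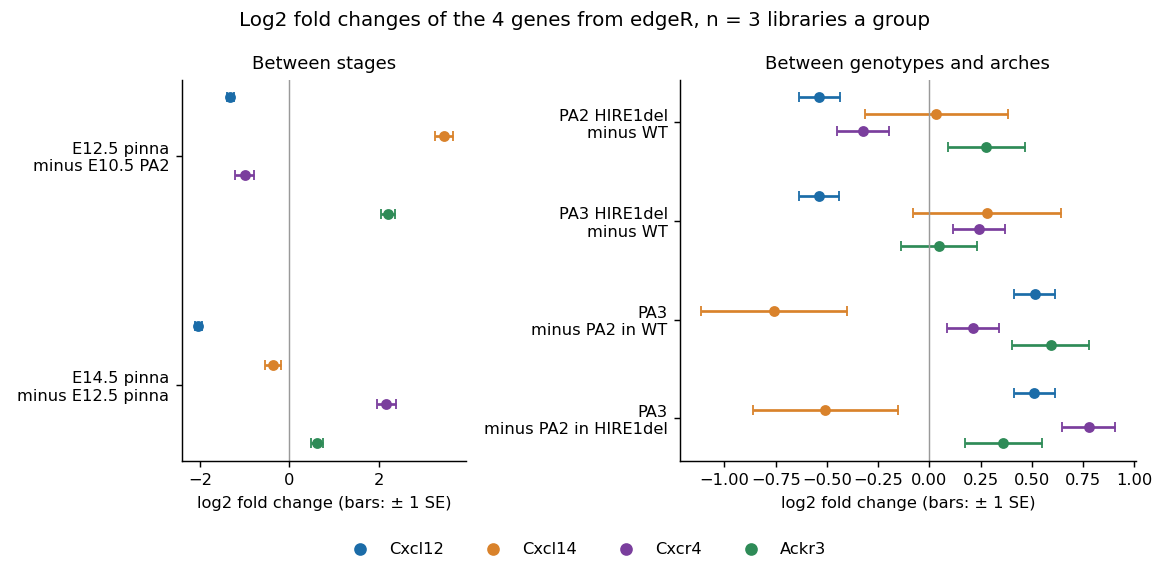
Log2 fold changes of the 4 genes from edgeR (horizontal axis, different in the 2 panels; bars are ± 1 SE; 3 libraries a group) between stages (left) and between genotypes and arches (right). Cxcl12 lies at -0.54 in both genotype contrasts, and Cxcl14 has the widest bars of the 4 on the right.

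edgeR called Cxcl12 and Ackr3 between arches in WT (36.5% of all genes) and Cxcl12 and Cxcr4 in HIRE1del/del (33.4% of all genes). As these levels were in view when the genes were selected, nothing is read from the calls. The Ackr3 call in WT was lost without PA2 replicate 1 or 3 or PA3 replicate 2. Without PA2 replicate 3 Ackr3 was called in HIRE1del/del. With a replicate block, Ackr3 in HIRE1del/del (log2 difference 0.37) and Cxcl14 in both genotypes (-0.75 in WT and -0.49 in HIRE1del/del) were called too. The block assumes that PA2 and PA3 libraries of the same genotype and number are paired, which the labels do not state. Other cells differed between the arches as well. In PA3 all 10 erythroid markers and 8 of 9 neuronal markers tested were higher in WT and in HIRE1del/del. Of 10 epithelial markers 6 were higher in each genotype, and of 9 endothelial markers 6 were higher in WT and 5 in HIRE1del/del. Each genotype had 1 lower neuronal and 1 lower epithelial marker. The glia, melanocyte and white blood cell lists had 0 lower. Branchiomeric muscle went both ways, 1 higher and 3 lower for WT against 2 and 2 for HIRE1del/del. Crest mesenchyme did too, with 2 higher and 4 lower for WT against 3 and 5 for HIRE1del/del. The crest list summed to 1117 to 1257 CPM in PA2 WT but 782 to 1014 in PA3 WT. For HIRE1del/del these sums were 1098 to 1245 and 830 to 1031 CPM. The epithelial list summed to 287 to 316 CPM in PA2 WT and 602 to 774 CPM in PA3 WT, and the endothelial list to 345 to 363 and 419 to 449 CPM. The part of these cells in the arch differences of the 4 genes was not tested.

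Of the 74 other pathway genes tested, 27 were higher and 17 lower in PA3 than in PA2 of WT (median log2 difference 0.0048, against -0.00064 for all genes), which is 59.5% called against 36.5% of all genes. In HIRE1del/del 23 were higher and 13 lower (0.05 against -0.00015), or 48.6% against 33.4%. The difference between these shares was not tested. Rgs4 was 26.01 ± 5.73 CPM in PA3 and 0.823 ± 0.431 in PA2 of WT, a log2 difference of 5.00 (SE 0.380, edgeR adjusted p = 1.12e-06). Rgs5 was 95.3 ± 23.9 against 18.4 ± 6.13 CPM (log2 difference 2.37, SE 0.269, adjusted p = 2.52e-05). Cd44 was 19.5 ± 1.69 against 4.79 ± 0.847 CPM (2.03, SE 0.132, adjusted p = 3.62e-07) and Ccrl2 3.24 ± 0.826 against 0.864 ± 0.158 CPM. Lower in PA3 were Ramp3, with 1.38 ± 0.231 against 2.99 ± 0.416 CPM, and Ebf1 with 24.5 ± 2.22 against 45.4 ± 2.33 CPM (log2 difference -0.89, SE 0.194, adjusted p = 0.00308). Sdc2, a heparan sulfate proteoglycan that can hold chemokines at the cell surface, was 37.0 ± 3.13 against 58.0 ± 2.47 CPM, and Hmgb1, which can pair with Cxcl12, was 180 ± 13.3 against 252 ± 36.2 CPM. In HIRE1del/del the genes named by the same rule were Rgs4, Ackr1, Rgs5 and Ccrl2 among the higher and Ramp3, Ebf1, Pxn and Hmgb1 among the lower.

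The profiles most like each of the 4 were ranked by the root mean square difference of log2(CPM + 0.5) about each gene's own mean. Over the 9 sorted libraries Mycl was nearest to Cxcl12 (0.112), with 82.8, 29.8 and 7.07 CPM at the 3 stages, followed by Ldhb and Arhgap45. Nearest to Cxcl14 was Cyp26b1, which breaks down retinoic acid (0.136), with 41.3, 384 and 352 CPM, then Wnt11 and Ntf5. For Cxcr4 it was Me1 (0.176), then Ndnf and Ank, and for Ackr3 Tlr2 (0.130), then Nipal2 and Gxylt2. Over the 12 arch libraries Boc, a co-receptor for hedgehog, was nearest to Cxcl12 (0.142), with 39.7 CPM in WT and 33.4 in HIRE1del/del PA2 and 58.6 and 44.9 in PA3, followed by Crebl2 and Ephb1. The nearest to Cxcl14 were Gjb2, Cdh15 and Wif1, to Cxcr4 Zdhhc2, Zfp54 and Tmcc3, and to Ackr3 Dio2, Epb41l1 and Ppox. With 2 CPM added in place of 0.5, 1 or 2 of each 3 genes remained.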

How the data were processed

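Values were raw counts per gene, which the authors deposited without normalization for 9 stage and 12 genotype libraries. Per their methods, reads were aligned to GRCm38 (mm10) with QuasR, and reads over exons of UCSC known genes were counted with the opposite-strand setting. The labels name an unstranded kit, so how far counts resolve strand is unsure. The exonic length is the deposited width. 0 columns of sample values were left unused, and 18 rows without a symbol were not named.

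The test was edgeR's two-sided quasi-likelihood test (edgeR 4.0.16, R 4.3.3), with limma 3.58.1 and DESeq2 1.42.0 as alternatives. Genes with at least 1 CPM in 2 libraries were kept, TMM factors were 0.946 to 1.04, and each table was fitted on its own with a mean for every group. p-values were adjusted by Benjamini-Hochberg over all genes, with calls at 0.05. The labels state 3 independent biological replicates, and replicate counts differed by more than sampling noise (chi-square per degree of freedom 7.00 to 46.5). The steps were tested on simulated data. Floors of 3 counts correspond to 0.0612 to 0.116 CPM and cover counting error only.

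The 4 genes, the pathway lists and the marker lists were chosen with earlier results of these data known. Named pathway genes are the 4 called genes with the largest rise and the 4 with the largest fall in a contrast among those whose replicate ranges do not overlap; Ccl27a, Ccl25 and the markers named were chosen after their values were seen, as were the genes around Cxcl12. The 3 most alike profiles were named per gene and table.

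Alternatives were other scalings, filters, tests, samples in the fit, a replicate block, and leaving out each library. Deviations from the group means correlated between PA2 and PA3 libraries of the same genotype and number (r = 0.382, 0.230 and 0.248 in WT and 0.213, 0.284 and 0.342 in HIRE1del/del). The main fit did not pair these libraries, so the log2 differences, SE and calls between arches are unpaired unless a block is named. They were treated as paired only in the replicate block and where directions are given pair by pair. That pairing is an assumption that the labels do not state. Between PA2 of WT and PA3 of HIRE1del/del, which cannot be the same embryos, r was 0.0446, -0.202 and 0.276. Promoters were read from RefSeq (GRCm38.p6) and positions from GENCODE M21.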

Additional observations from a re-analysis of the deposited data

How the results depend on the processing

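No called result changed its direction under the alternatives. Of the genotype differences that were not called, some changed sign: Cxcl14 ranged from -0.46 to 0.23 in PA2 and from -0.15 to 0.48 in PA3, and Ackr3 in PA3 from -0.07 to 0.21. The difference of effects ranged from -0.08 to 0.12 for Cxcl12 and from -0.75 to 0.19 for Cxcl14. Among log2 differences of the 4 genes 466 values moved by less than the spread between replicates, and the exceptions were, with total counts only from E12.5 to E14.5, Ackr3 (0.50) and Cxcl12 (-2.17). The 1 pathway gene called in PA2 HIRE1del/del became 2 with the DESeq2 test and 2 with the replicate block, and 0 to 2 when 1 library was left out. In PA3 HIRE1del/del the DESeq2 test called 1 in place of 0. For these changes the cause was not tested. Counts of pathway genes in the other contrasts stayed within 1.5 times, and the 41 named fold changes kept their direction and call except Pik3r1, which lost its call in 5 of 14 alternatives. Replicate numbers cannot join the same embryos across stages (r = -0.31 to 0.20) or, in PA2, across genotypes (0.14, -0.14 and 0.24). A block on replicate number called 49, 47 and 55 pathway genes in the 3 stage contrasts. The block that pairs PA2 and PA3 libraries changed no call of the 4 genes beyond those given in the arch comparison. At E12.5 Cxcr4 rests on 48 to 58 counts a library.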
